A study of Mus musculus with 56 samples.

Results

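The Cyp4 fatty acid omega-hydroxylases were followed in the livers of hypothyroid mice, hyperthyroid mice and hypothyroid mice with a mutant NCOR1 corepressor. The set has 9 genes, Cyp4a10, Cyp4a12a, Cyp4a12b, Cyp4a14, Cyp4a31, Cyp4a32, Cyp4f14, Cyp4f15 and Cyp4v3, of 23813 genes with a name in the RNA-seq table. The members were chosen by gene symbol with earlier results of these libraries known, and the first listed transcript of each gene was used. Their levels in the 3 groups are therefore given as a description in every comparison, with no p-value for a member. Where a member is counted as higher or lower, the count says on which side of the thresholds it lay in the fit over all genes and is no evidence about the members.

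RNA was sequenced from the livers of male mice, with 4 libraries per group. Hypothyroid WT mice were fed for 16 days with chow poor in iodine that held 0.15% propylthiouracil (PTU), a blocker of thyroid hormone synthesis, and were given vehicle at the end. Hyperthyroid WT mice had the same diet and intraperitoneal injections of 5 μg triiodothyronine (T3) during the last 4 to 6 days, and hypothyroid L-NCOR1ΔID mice received the PTU diet with no T3. All 3 groups thus carried the PTU diet. L-NCOR1ΔID mice express, in the liver, an NCOR1 protein without the domains that bind the thyroid hormone receptor (TR), and they were kept on a mixed strain background. The study gives ages as means per group over more mice than were sequenced, and by these the L-NCOR1ΔID mice were younger on average than the WT mice, so that age and genotype cannot be told apart. The strain of the mouse behind each WT library is not given in the sources used here. The study names a WT background only for littermates of a TR mutant line, C57BL/6J with NIH Black Swiss. Strain and genotype may therefore not be told apart either. Levels are RPKM, the reads of a transcript per kilobase of its length, scaled to the aligned reads of the library, so that genes can be compared per length.

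Cyp4 enzymes are cytochrome P450 proteins of the endoplasmic reticulum that put a hydroxyl group on the last carbon of a fatty acid. The product is oxidised by alcohol and aldehyde dehydrogenases to a dicarboxylic acid, which is then shortened in peroxisomes. In the liver the Cyp4a genes are known as targets of the fatty acid receptor PPARα, some Cyp4a genes are more active in males, and Cyp4f enzymes inactivate leukotrienes and other eicosanoids. Cyp4v3 is the mouse counterpart of human CYP4V2, an enzyme of medium-chain fatty acids whose loss causes a crystalline disease of the retina.

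The 6 Cyp4a members lie next to each other on chromosome 4 in a span of 322.6 kb (chr4:114971651-115294207, mm9, GENCODE M1 annotation). From the left they are Cyp4a12a, Cyp4a12b, Cyp4a14, Cyp4a10, Cyp4a31 and Cyp4a32, with Cyp4a14 on the minus strand and the other 5 on the plus strand. Cyp4f15 (chr17:32822572-32840297, plus strand) and Cyp4f14 (chr17:33042016-33054023, minus strand) lie in a span of 231.5 kb on chromosome 17, and Cyp4v3 (chr8:46391155-46418570, minus strand) lies on chromosome 8. Several members are near copies of each other. The coding sequences of Cyp4a12a and Cyp4a12b were 98.5% identical, those of Cyp4a10 and Cyp4a32 were 97.2% identical, those of Cyp4a10 and Cyp4a31 were 96.6% identical and those of Cyp4a31 and Cyp4a32 were 96.0% identical. Of all stretches of 50 bases in the transcript of Cyp4a12b, 49.4% were also found in another member. That share was 48.9% for Cyp4a12a, 46.8% for Cyp4a32, 31.5% for Cyp4a31 and 29.2% for Cyp4a10, against 0.90% for Cyp4f15, 0.88% for Cyp4f14 and 0 for Cyp4a14 and Cyp4v3. Reads from shared stretches cannot be assigned to 1 gene with certainty, so the levels within the Cyp4a12a and Cyp4a12b pair and within the Cyp4a10, Cyp4a31 and Cyp4a32 trio are uncertain where they are split.

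The study also deposited the list of 37200 regions with acetylated histone H3 (H3K27Ac or H3K9Ac) in livers of hypothyroid and hyperthyroid WT mice, without the level of acetylation. The start sites of 8 of the 9 members lay inside such a region, compared to 92.5% of the 9519 genes with a mean of at least 1 RPKM. The exception was Cyp4a12a, whose nearest region ended 14977 bp upstream of its start site (chr4:114949214-114956674). Around Cyp4a12b the only region that touched the gene was 1287 bp long (chr4:115083335-115084621) and was centred 251 bp upstream of the start site. Regions at the other start sites ranged from 3649 bp at Cyp4a31 to 14384 bp at Cyp4v3. Within 100 kb of the start site, Cyp4a12a and Cyp4a12b had 2 regions each and Cyp4a31 had 10, against a median of 8 for the 9519 genes.

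**Figure D1:**
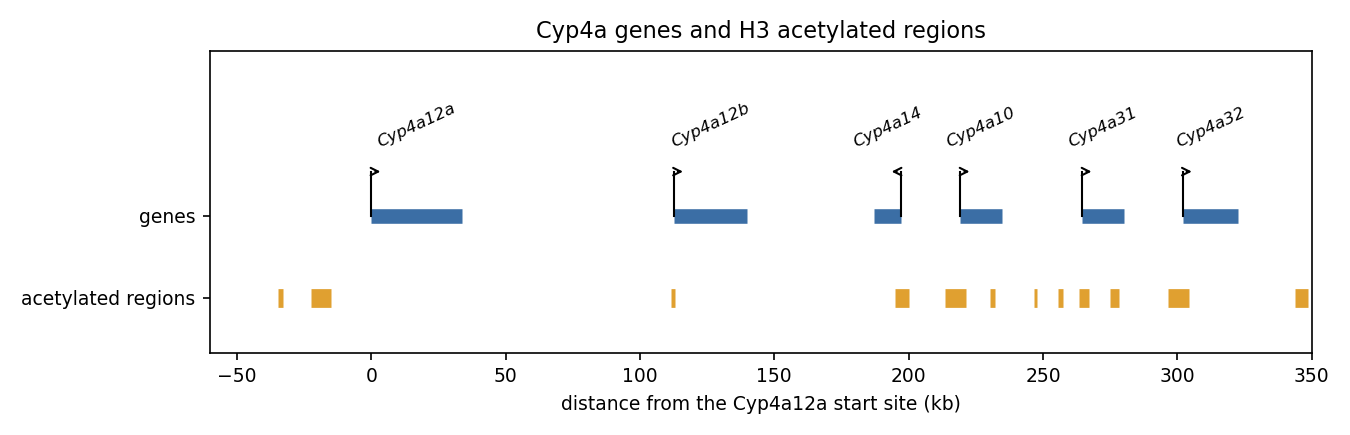
Map of the 6 Cyp4a genes (blue, arrows at the start sites point in the direction of transcription) and of H3 acetylated regions (yellow), with the distance from the Cyp4a12a start site in kb on the horizontal axis. The regions cluster at the 4 genes on the right, and the start site of Cyp4a12a has no region over it.

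Promoter sequences were available in RefSeq for 4 members, Cyp4a32, Cyp4f14, Cyp4f15 and Cyp4v3. Each was searched only on its own chromosome and strand in mm9 and was found there at 1 place. All lay wholly inside the acetylated region at the start of their gene. They are shown because no others were available, and they cover members that were lower in hyperthyroid mice and a member that was not. Each sequence runs 5′ to 3′ and ends at or before the start site, and the capitals mark the 16 bases most like a DR4, 2 copies of AGGTCA in the same direction with 4 bases between them, the arrangement that TR binds with RXR.
Cyp4a32 (chr4:115273293-115273542, plus strand): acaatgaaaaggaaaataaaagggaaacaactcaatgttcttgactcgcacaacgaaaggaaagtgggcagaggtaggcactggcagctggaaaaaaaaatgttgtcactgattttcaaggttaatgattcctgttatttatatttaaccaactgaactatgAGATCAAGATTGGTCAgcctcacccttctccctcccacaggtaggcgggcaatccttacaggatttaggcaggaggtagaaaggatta
Cyp4f14 (chr17:33054302-33054551, minus strand): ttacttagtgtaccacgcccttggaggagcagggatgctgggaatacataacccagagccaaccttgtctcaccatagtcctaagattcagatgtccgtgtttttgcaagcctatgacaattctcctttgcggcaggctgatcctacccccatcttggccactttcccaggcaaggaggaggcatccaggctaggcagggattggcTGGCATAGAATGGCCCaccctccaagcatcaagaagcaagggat
Cyp4f15 (chr17:32822354-32822571, plus strand): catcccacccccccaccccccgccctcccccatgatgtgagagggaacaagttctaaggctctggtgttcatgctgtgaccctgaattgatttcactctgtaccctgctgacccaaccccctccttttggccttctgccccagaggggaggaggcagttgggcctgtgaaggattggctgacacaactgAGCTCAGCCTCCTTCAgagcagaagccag
Cyp4v3 (chr8:46418571-46418767, minus strand): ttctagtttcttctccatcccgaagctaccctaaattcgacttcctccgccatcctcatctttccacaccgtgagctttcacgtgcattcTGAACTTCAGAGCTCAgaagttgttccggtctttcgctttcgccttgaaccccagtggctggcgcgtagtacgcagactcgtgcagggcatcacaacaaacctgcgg

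The 250 bases before the start site held no AGGTCA on either strand in any of the 4 genes, while 14% of 32851 promoter windows of the same length did. A DR4 without mismatch was found in 0.0152% of all windows, and a DR1 without mismatch, in which 1 base lies between the 2 copies and which PPARα binds with RXR, in 0.0335%. None of these 4 genes had either. Of the 12 half-site bases of a DR4, 10 matched in Cyp4a32, and 2.57% of all windows had at least that many. The marked stretches of Cyp4f14 and Cyp4f15 matched at 8 bases, a number reached or passed in 70.6% of all windows, and that of Cyp4v3 at 7. A further 3 windows at alternative starts of Cyp4f14 lay in the same region, and the one closest to the gene matched at 10 bases. For a DR1, the highest number of matching bases was 9 in Cyp4a32 and Cyp4v3 and 8 in Cyp4f15 and in the Cyp4f14 sequence above. No sequence was available for the other 5 members, Cyp4a10, Cyp4a12a, Cyp4a12b, Cyp4a14 and Cyp4a31, so these matches do not describe them.

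Estimated from the smallest steps between RPKM values, the libraries held 28840000 to 37800000 reads in hypothyroid WT, 21040000 to 25880000 in hyperthyroid WT and 37660000 to 42220000 in hypothyroid L-NCOR1ΔID mice, so the hyperthyroid libraries were the shallowest. Libraries of a group correlated with r from 0.967 to 0.986 on the log2 scale across genes, which are not independent replicates. Dio1, a classic T3 target chosen as a label check after its values were seen, was at 458.6 to 640.6 RPKM in hyperthyroid WT, at most 57.7 in hypothyroid WT and at most 20.9 in L-NCOR1ΔID libraries. Ncor1 was at 12.1 to 13.9 RPKM in L-NCOR1ΔID and 14.1 to 15.6 in hypothyroid WT libraries, a total over the whole transcript that does not show the loss of single exons. Markers of other cells moved with T3, in a limma fit that placed 8.28% of all genes tested higher and 3.47% lower. All 5 Kupffer cell markers (Clec4f, Cd5l, Adgre1, Vsig4 and Marco) rose, with a sum of 35.6 to 50.1 RPKM in hypothyroid WT, 117.3 to 196.6 in hyperthyroid WT and 42.4 to 115.0 in L-NCOR1ΔID libraries. Of 5 hepatocyte markers, Alb and Ttr fell and the other 3 did not pass, with log2 differences of -0.38 for Cps1, 0.36 for Serpina1a and 0.12 for Apoa1. The sum of the 5, most of which was Alb, was 37044 to 48549 RPKM in hypothyroid WT, 18608 to 27060 in hyperthyroid WT and 31070 to 34331 in L-NCOR1ΔID libraries. Among 5 markers each, 1 sinusoidal endothelial marker (Lyve1) and 1 cholangiocyte marker (Krt7) rose, Sox9 of the cholangiocyte list had a log2 difference of -0.73 that stayed short of 1, and no stellate cell marker passed the limma test (3 were higher at an unadjusted p under 0.05, as were 42.9% of all genes), while all 5 kidney tubule markers were under 0.1 RPKM in every library. In bulk liver, fewer cells of a type and less RNA per cell cannot be told apart, and the part of these shifts in the values of the Cyp4 genes was not tested.

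In hypothyroid WT livers the 9 transcripts together reached 834.0 ± 32.9 RPKM (SD, n = 4). Cyp4a12a led with 207.3 ± 6.5 RPKM and stood above all others without overlap. Cyp4v3 (172.8 ± 15.1) and Cyp4f14 (166.4 ± 13.3) came next and overlapped with each other. Then followed Cyp4a10, Cyp4f15, Cyp4a14 and Cyp4a12b, with means from 78.8 to 54.9 RPKM and each overlapping with its neighbour. Cyp4a32 (5.60 ± 0.49) and Cyp4a31 (0.75 ± 0.16) were the lowest.

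In hyperthyroid WT livers the sum was 331.3 ± 73.8 RPKM, and its range of 266.6 to 397.5 lay below that of hypothyroid WT, 796.5 to 862.3. The order of the genes differed too. Cyp4a14 (75.6 ± 57.3), Cyp4f14 (70.4 ± 6.5) and Cyp4v3 (63.7 ± 5.6) had the highest means and overlapped, Cyp4a31 (30.6 ± 12.8) stood between Cyp4a10 (34.5 ± 16.8) and Cyp4a12a (11.4 ± 5.9), and Cyp4a12b was last with 0.47 ± 0.54. Cyp4a12a made up 24.9% ± 1.5 of the summed level in hypothyroid and 3.74% ± 2.49 in hyperthyroid WT, whereas Cyp4a31 made up 0.091% ± 0.022 and 9.07% ± 2.74. The sum in L-NCOR1ΔID livers was 723.1 ± 222.7 RPKM, with 1048.8, 560.4, 680.3 and 603.0 RPKM in replicates 1 to 4. Replicate 1 lay above the whole range of hypothyroid WT and each of the others below it, so the ranges overlapped only because of replicate 1.

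**Figure D2:**
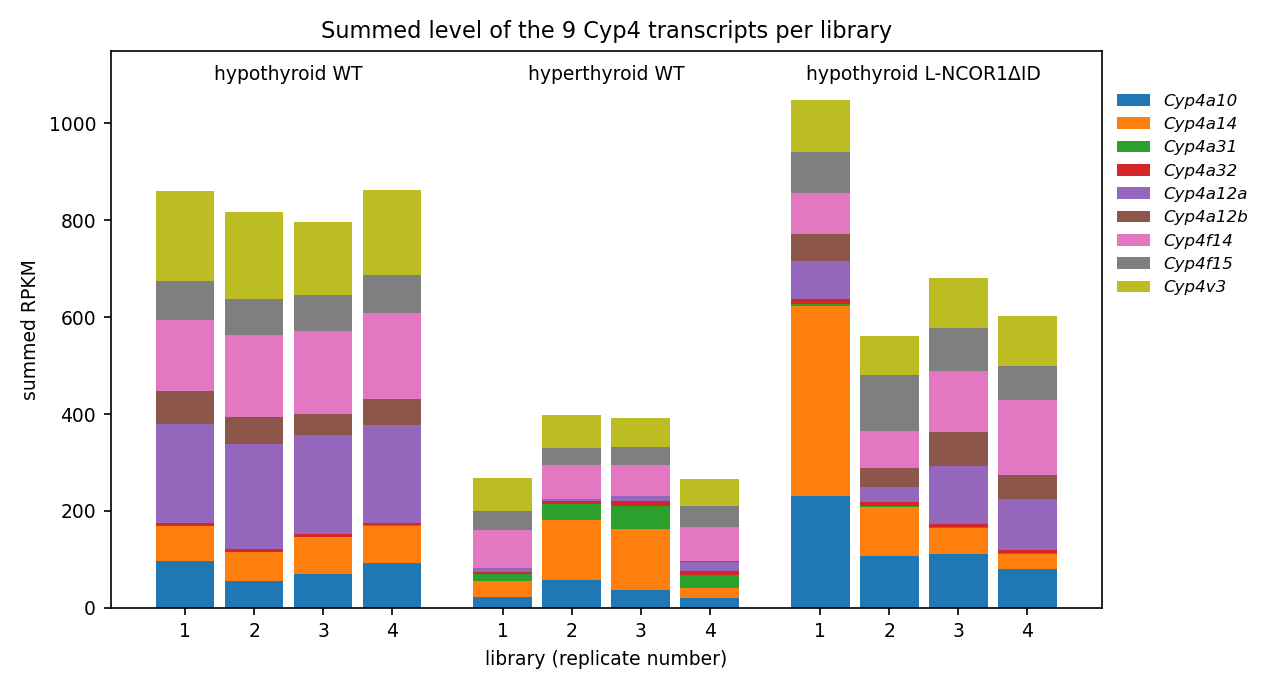
Summed RPKM of the 9 Cyp4 transcripts in each of the 12 libraries, stacked by gene, with the replicate number on the horizontal axis. The hyperthyroid WT libraries sum to at most 397.5 RPKM, and the bar of L-NCOR1ΔID replicate 1 is the tallest at 1048.8 because of Cyp4a14 and Cyp4a10.

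Hyperthyroid and hypothyroid WT livers were compared to show the response to T3. With a limma adjusted p under 0.01 and a log2 difference above 1 in size, 1 of the 9 members counted as higher and 6 as lower, while 8.28% of all 13941 genes tested were higher and 3.47% were lower. The rule that chose the members used this contrast, so nothing is read from these counts. The median log2 difference was -1.24 for the members and 0.23 for all genes. After rescaling of the libraries by the median of gene ratios the median of all genes was 0.01, that of the members was -1.48, and again 1 member was higher and 6 were lower. Rescaling turned the split over all genes from 1155 higher and 484 lower to 749 higher and 679 lower.

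The largest difference was at Cyp4a12b. Its level was 67.1, 55.9, 43.9 and 52.7 RPKM in the 4 hypothyroid WT libraries and 0.17, 0.05, 0.41 and 1.25 RPKM in the 4 hyperthyroid ones. The lowest hypothyroid library was thus far above the highest hyperthyroid one, and the log2 difference was -7.06 ± 0.56 (SE; log2(RPKM + 0.1), n = 4 and 4). Cyp4a12b stayed under 0.1 RPKM in hyperthyroid replicate 2. It therefore entered each fit with hyperthyroid WT only through the libraries of the other group, where it was high. Cyp4a12a, a male-predominant enzyme that makes 20-hydroxyeicosatetraenoic acid from arachidonic acid, was at 205.1, 216.9, 204.1 and 202.9 RPKM in hypothyroid WT. In hyperthyroid WT it was at 9.12, 5.27, 11.8 and 19.2 RPKM, without overlap, and the log2 difference was -4.33 ± 0.32. The mean of Cyp4a12a was 18.2 times lower in hyperthyroid mice, whereas that of Cyp4a12b was 116.7 times lower. The ratio of Cyp4a12b to Cyp4a12a within a library was 0.215 to 0.327 in hypothyroid WT and 0.009 to 0.065 in hyperthyroid WT, so the pair did not change in proportion as deposited. Among the hyperthyroid libraries both genes were highest in replicate 4 and lowest in replicate 2.

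Cyp4a31 was the member that was higher after T3. It was at 0.60, 0.73, 0.97 and 0.71 RPKM in hypothyroid WT and at 14.96, 33.0, 46.1 and 28.5 RPKM in hyperthyroid WT. The groups were far apart, and the log2 difference was 5.08 ± 0.30, with a mean 40.8 times higher. Its near copies had other patterns. Cyp4a32 was at 5.92, 5.66, 5.92 and 4.89 RPKM in hypothyroid and 3.38, 5.83, 9.85 and 7.20 RPKM in hyperthyroid WT, with overlap and a log2 difference of 0.13 ± 0.27 that was -0.10 after rescaling. Cyp4a10, an enzyme known for its induction by PPARα agonists, was at 97.2, 55.5, 70.5 and 91.9 RPKM in hypothyroid and 22.5, 57.0, 37.6 and 20.8 RPKM in hyperthyroid WT. Hyperthyroid replicate 2 lay above hypothyroid replicate 2, and the log2 difference was -1.28 ± 0.32. It was counted as lower in 8 of 18 alternative settings and was not without hypothyroid replicate 1, 3 or 4 or hyperthyroid replicate 1, 3 or 4, with differences of -1.36 to -1.08. The ratio of Cyp4a31 to Cyp4a10 within a library was 0.006 to 0.014 in hypothyroid WT and 0.579 to 1.37 in hyperthyroid WT.

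Cyp4a14, another PPARα-inducible enzyme, spread widely after T3. Its level was 70.7, 59.2, 74.7 and 78.0 RPKM in hypothyroid WT and 32.9, 124.0, 126.0 and 19.4 RPKM in hyperthyroid WT. Hyperthyroid replicates 2 and 3 stood above and replicates 1 and 4 below all hypothyroid libraries, so that the means (70.7 and 75.6 RPKM) nearly coincided and the log2 difference was -0.32 ± 0.56, with a 95% interval of -1.58 to 0.94. It was 0.19 without hyperthyroid replicate 4.

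The 3 members outside the Cyp4a cluster were lower after T3 in every library. Cyp4v3 was at 186.9, 178.3, 151.5 and 174.3 RPKM in hypothyroid and 69.3, 67.5, 61.0 and 57.2 RPKM in hyperthyroid WT, a log2 difference of -1.44 ± 0.09. Cyp4f14, an omega-hydroxylase of leukotriene B4, was at 147.1, 169.5, 171.3 and 177.6 RPKM against 78.5, 68.8, 62.9 and 71.3 RPKM, a log2 difference of -1.24 ± 0.09. Cyp4f15, a close relative with 82.2% identical coding sequence, was at 80.2, 74.4, 73.6 and 79.3 RPKM against 37.4, 36.2, 37.0 and 41.7 RPKM. Its log2 difference of -1.01 ± 0.07 lay at the limit of 1, and it fell just short of that limit without hypothyroid replicate 1 or 4 or hyperthyroid replicate 2 or 3. These 3 genes had small spreads compared to the Cyp4a genes in hyperthyroid WT, and the groups did not overlap for any of them. Over all members, 5 had no overlap with lower and 1 with higher hyperthyroid values, compared to 10.8% and 35.8% of all genes tested. Cyp4a12b, which entered only through the hypothyroid libraries, is among these 5, and nothing is read from the counts.

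**Figure D3:**
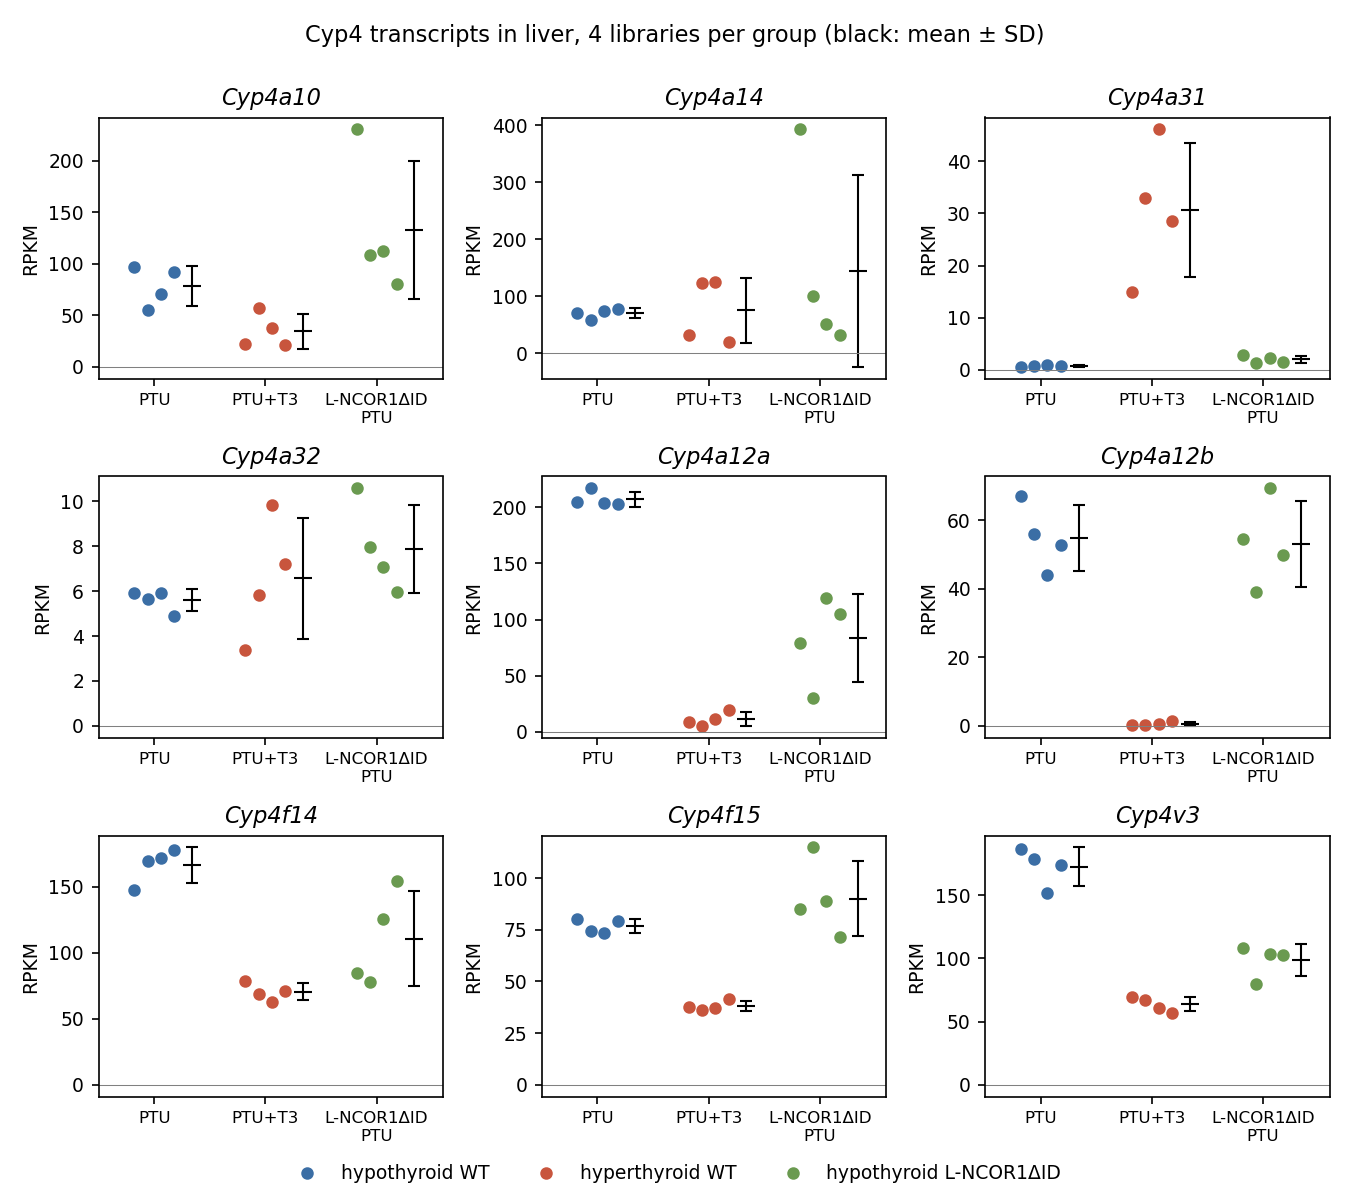
RPKM of each of the 9 Cyp4 genes in every library, with points in replicate order and the mean ± SD (n = 4) in black beside them. Cyp4a12a and Cyp4a12b are near 0 in hyperthyroid WT, Cyp4a31 is near 0 outside hyperthyroid WT, and Cyp4a14 reaches 393.2 in 1 L-NCOR1ΔID library.

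L-NCOR1ΔID and WT livers, both hypothyroid, were compared to show the difference between the genotypes without T3. Mean age, and possibly strain, differed along with the genotype. At a limma adjusted p under 0.01 in either direction, 0 members were higher and 1 was lower, compared to 0.725% and 0.544% of the 13790 genes tested. At an unadjusted p under 0.05 limma placed 2 members higher and 3 lower, compared to 12.8% and 7.77% of the genes tested. The rule that chose the members names these libraries too, so again nothing is read from the counts. The median log2 difference was 0.21 for the members and 0.03 for all genes. Both comparisons share the hypothyroid WT libraries, and the values of each are therefore only set side by side.

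Cyp4v3 was the member counted as lower. It was at 108.6, 80.1, 103.3 and 103.0 RPKM in L-NCOR1ΔID libraries, all below the lowest hypothyroid WT library (151.5), and the log2 difference was -0.81 ± 0.11. Its level thus lay between hypothyroid and hyperthyroid WT. It was no longer counted in each fit without 1 of the hypothyroid WT libraries and without L-NCOR1ΔID replicate 1 or 3, while the difference stayed between -0.87 and -0.71 in all 18 alternatives.

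Cyp4a12a was at 79.3, 30.3, 119.6 and 105.1 RPKM in L-NCOR1ΔID mice, without overlap with hypothyroid WT (202.9 to 216.9). Its log2 difference was -1.48 ± 0.37, and replicate 2 was the lowest. Without that library it was -1.05 ± 0.13, and the gene was then counted as lower. Cyp4a12b was at 54.6, 39.0, 69.3 and 49.9 RPKM, which overlapped with hypothyroid WT (43.9 to 67.1), with a log2 difference of -0.06 ± 0.18 that was 0.04 without hypothyroid replicate 1 and 0.08 without L-NCOR1ΔID replicate 2. The ratio of Cyp4a12b to Cyp4a12a was accordingly 0.475 to 1.29 in L-NCOR1ΔID, above the 0.215 to 0.327 of hypothyroid WT. L-NCOR1ΔID replicate 2, the lowest for both genes, was also the library with the highest Kupffer cell marker sum of its group, including 29.1 RPKM of Marco against 0.65 to 4.62 in the other 3. What part this had in the result was not tested.

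Cyp4a31 was at 2.895, 1.42, 2.36 and 1.53 RPKM in L-NCOR1ΔID, above all hypothyroid WT libraries (0.60 to 0.97) and far below all hyperthyroid ones. Its log2 difference was 1.30 ± 0.24. Cyp4a32, at 10.6, 7.95, 7.07 and 5.96 RPKM, was also above hypothyroid WT (4.89 to 5.92) in every library, by a log2 difference of 0.46 ± 0.16. For Cyp4a10 the values were 230.2, 108.0, 112.1 and 80.6 RPKM, with overlap and a log2 difference of 0.67 ± 0.31. Cyp4a14 was at 393.2, 101.1, 52.3 and 31.3 RPKM, a range that enclosed every hypothyroid WT value, and the log2 difference was 0.35 ± 0.65. Replicate 1 was the highest L-NCOR1ΔID library for all 4 genes. Without it the mean of Cyp4a14 fell from 144.5 to 61.6 RPKM, its log2 difference was -0.36, and the mean of Cyp4a10 fell from 132.7 to 100.2 RPKM.

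Neither Cyp4f14 nor Cyp4f15 was counted here, and the difference between the pair was not tested. Cyp4f14 was at 84.5, 77.6, 125.5 and 154.1 RPKM in L-NCOR1ΔID, with replicate 4 inside the hypothyroid WT range and a log2 difference of -0.64 ± 0.20. Cyp4f15 was at 84.9, 114.8, 88.7 and 71.6 RPKM, with overlap and a log2 difference of 0.21 ± 0.13. Within this group the library lowest for Cyp4f14 (replicate 2) was the highest for Cyp4f15. Over all members, 2 had no overlap with lower and 2 with higher L-NCOR1ΔID values, compared to 5.36% and 7.78% of all genes tested.

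**Figure D4:**
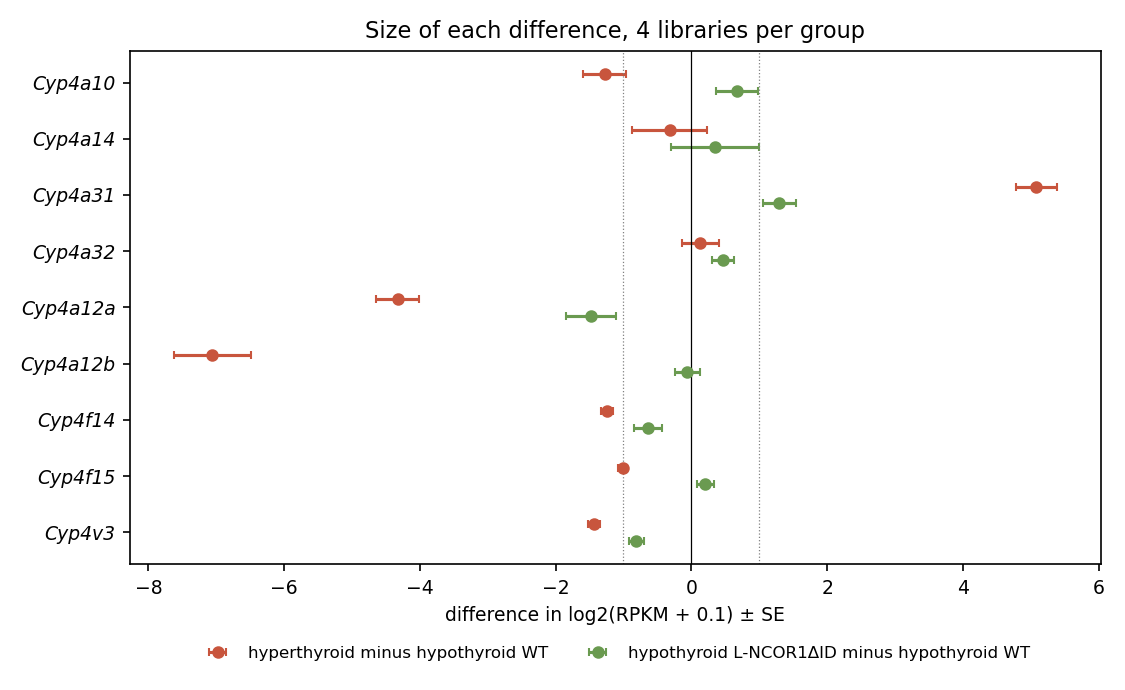
Difference in log2(RPKM + 0.1) ± SE for each Cyp4 gene, between hyperthyroid and hypothyroid WT (red) and between hypothyroid L-NCOR1ΔID and hypothyroid WT (green), with 4 libraries per group and dotted lines at -1 and 1. The red points reach from -7.06 at Cyp4a12b to 5.08 at Cyp4a31, and the green points lie between -1.48 and 1.30.

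A direct comparison of hyperthyroid WT with hypothyroid L-NCOR1ΔID livers placed 1 member higher and 4 lower by the same thresholds as for T3, compared to 5.52% and 3% of 14017 genes. As these are the libraries of the rule, nothing is read from the counts. Cyp4a31 was higher in hyperthyroid WT by 3.78 ± 0.34 on the log2 scale. Cyp4a12b (-7.00 ± 0.57), Cyp4a12a (-2.84 ± 0.48), Cyp4a10 (-1.95 ± 0.38) and Cyp4f15 (-1.22 ± 0.13) were lower. Cyp4a10 was no longer counted without hyperthyroid replicate 1, 3 or 4 or L-NCOR1ΔID replicate 3, with differences of -2.03 to -1.75. Cyp4v3 was lower in every hyperthyroid library (57.2 to 69.3 against 80.1 to 108.6 RPKM), by -0.63 ± 0.11. In L-NCOR1ΔID livers Cyp4a12a was at 40.3% and Cyp4a12b at 97.0% of the hypothyroid WT mean, and in hyperthyroid WT they were at 5.48% and 0.86%. Values without overlap were lower in hyperthyroid WT for 5 members and higher for 1, compared to 9.57% and 28.7% of all genes tested. Cyp4a12b, which entered here only through the L-NCOR1ΔID libraries, is among these 5.

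Some pairs of members varied together across the 12 libraries and others did not. The libraries fall into the 3 groups and share their scaling, so these correlations are a description. Pearson's r on the log2 scale was near 0 between Cyp4a12a and Cyp4a14 (0.01) and between Cyp4a12a and Cyp4a32 (-0.02). It was -0.22 between Cyp4a32 and Cyp4v3, while pairs with large values are given next. On the log2 scale Pearson's r was 0.93 between Cyp4a12a and Cyp4a12b, 0.94 between Cyp4a12b and Cyp4f15, 0.91 between Cyp4a12a and Cyp4v3 and -0.92 between Cyp4a12b and Cyp4a31. Of 10654 other genes with a mean of at least 1 RPKM, those most like Cyp4a12a were Cyp2d9 (r = 0.99), Keg1 (0.98) and Plekhf1 (0.98), of which Cyp2d9 is a male-predominant steroid hydroxylase. Most like Cyp4v3 were Ghr, the growth hormone receptor (0.98), Daam1 (0.97) and Dpys (0.97). Adh4 (0.97), Tmprss6 (0.97) and Car8 (0.97) were most like Cyp4f14. For Cyp4a14, whose variation lay within groups, the highest values were lower, 0.87 for Erh, 0.86 for Cidec, a lipid droplet protein, and 0.83 for Btbd9.

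Genes around the enzymes were described from lists that were likewise drawn up with earlier results known. Their counts are a description. Of all genes tested, 8.28% were higher and 3.47% lower after T3, and 0.725% and 0.544% in L-NCOR1ΔID mice. At an unadjusted p under 0.05 in limma the shares were 42.9% and 13.6% after T3, and 12.8% and 7.77% in L-NCOR1ΔID mice. Of 13 other Cyp4 genes, 12 were in the table and 7 were tested for T3. Cyp4f13, the highest of them, was at 37.9 ± 3.6 RPKM in hypothyroid WT, 33.1 ± 2.3 in hyperthyroid WT and 34.5 ± 3.8 in L-NCOR1ΔID mice and did not pass the test. Cyp4b1 (4.89 ± 0.93, 6.11 ± 1.22 and 5.67 ± 0.57) and Cyp4f17 (4.33 ± 0.60, 4.68 ± 0.82 and 4.88 ± 0.48) did not pass either. Cyp4f39 was at 0.20, 0.15, 0.32 and 0.13 RPKM in hyperthyroid WT and at most 0.04 in hypothyroid WT. It entered the T3 fit only through the hyperthyroid libraries, so its difference is given no test. No other gene of the list passed for T3 in limma. At an unadjusted p under 0.05, 2 were higher in limma, Cyp4f39 and Cyp4f18, and 1 was lower. None of the 6 that were tested in L-NCOR1ΔID mice passed in limma. At an unadjusted p under 0.05, 2 were higher there in limma, Cyp4f16 and Cyp4f18, compared to 12.8% of all genes tested. Cyp4f18 was at most at 0.11 RPKM in hypothyroid WT. It entered the tests only with the help of the hyperthyroid or L-NCOR1ΔID libraries, so nothing is read from it in either count.

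Cyp4 enzymes take their electrons from Por, the P450 reductase, with help from cytochrome b5. Of 4 electron donor genes, Cyb5a fell after T3 from 1171 to 454.4 RPKM (log2 difference -1.36 ± 0.10, limma adjusted p = 1.8e-05), and 3.47% of all genes tested fell. The other 3 did not pass, but Cyb5b (-0.67 ± 0.07, limma adjusted p = 1.0e-04) missed only the limit of 1 on the log2 scale. At an unadjusted p under 0.05 in limma, 3 of the 4 were lower and 0 higher after T3, compared to 13.6% and 42.9% of all genes tested. Por itself was at a mean of 211.8 RPKM in hypothyroid WT, 180.8 in hyperthyroid WT and 362.5 in L-NCOR1ΔID mice (log2 difference 0.67 ± 0.28 for L-NCOR1ΔID, adjusted p = 0.22). None of the 4 passed in L-NCOR1ΔID mice, while 0.725% of all genes tested were higher and 0.544% lower. At an unadjusted p under 0.05 in limma, 1 was higher and 0 lower there, compared to 12.8% and 7.77% of all genes tested.

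Downstream of the Cyp4 step, 19 genes of omega-oxidation and peroxisomal chain shortening were listed. After T3, 2 of the 19 rose and 5 fell, compared to 8.28% and 3.47% of all genes tested. The median log2 difference of the list was -0.63. Adh4, an alcohol dehydrogenase, fell from 158.9 to 40.5 RPKM (log2 difference -1.98 ± 0.12, adjusted p = 7.5e-06). Acot4, a peroxisomal thioesterase that releases succinate and other short dicarboxylic acids from CoA, fell from 22.9 to 4.55 RPKM (-2.31 ± 0.16, adjusted p = 1.7e-05), and Scp2, the peroxisomal thiolase and sterol carrier, fell from 771.8 to 342.4 RPKM (-1.17 ± 0.10, adjusted p = 4.6e-05). Among the peroxisomal importers of fatty acids, Abcd2 rose from 0.72 to 10.2 RPKM (3.63 ± 0.34, adjusted p = 6.5e-05) and Abcd3 from 118.9 to 347.5 RPKM (1.57 ± 0.15, adjusted p = 7.1e-05). In L-NCOR1ΔID mice 1 of the 19 rose and none fell, compared to 0.725% and 0.544% of all genes tested. It was Ehhadh, the bifunctional peroxisomal enzyme of dicarboxylic acid shortening, from 86.3 to 276.7 RPKM (1.64 ± 0.17, adjusted p = 0.0014). At an unadjusted p under 0.05 in limma, 1 was higher and 6 were lower, compared to 12.8% and 7.77% of all genes tested.

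PPARα targets other than the Cyp4a genes did not share 1 direction. Of 23 listed, 2 rose and 4 fell after T3, compared to 8.28% and 3.47% of all genes tested. The median log2 difference of the list was -0.12. The thioesterases Acot3, from 13.3 to 0.14 RPKM (-5.77 ± 0.35), Acot1 (-3.26 ± 0.28, adjusted p = 4.1e-05) and Acot2 (-1.71 ± 0.29, adjusted p = 0.0015) fell most. Acot3 entered the test only through the hypothyroid libraries, so its difference is given no test. Plin2, a lipid droplet protein, rose from 99.1 to 231.5 RPKM (1.19 ± 0.16, adjusted p = 4.6e-04), and Pdk4, an inhibitor of pyruvate dehydrogenase, rose from 0.78 to 2.93 RPKM (1.70 ± 0.40, adjusted p = 0.0067). In L-NCOR1ΔID mice, Ehhadh, which is in this list too, was higher and Creb3l3, a liver transcription factor of lipid metabolism, was lower (-0.65 ± 0.09, adjusted p = 0.0048). At an unadjusted p under 0.05, 2 of the 23 were higher and 10 lower in limma, compared to 12.8% and 7.77% of all genes tested. The median log2 difference of the list there was -0.36. Acot1, Acot2 and Acot3 are close copies, and reads may have been divided between them.

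Because Cyp4a12a and Cyp4a12b are more active in males, other sex-biased liver genes were listed. Of 15 male-biased genes, 5 fell and 2 rose after T3, compared to 3.47% and 8.28% of all genes tested. Hsd17b6 fell from 181.4 to 2.02 RPKM (-6.62 ± 0.47, adjusted p = 1.7e-05), Mup20 from 5405 to 872.8 RPKM (-2.74 ± 0.34, adjusted p = 2.8e-04) and Cyp2d9 from 679.8 to 136.5 RPKM (-2.32 ± 0.13, adjusted p = 5.8e-06). Elovl3 rose from 10.7 to 91.9 RPKM (3.37 ± 0.43, adjusted p = 2.9e-04) and Cyp7b1 from 76.7 to 231.9 RPKM (1.71 ± 0.29, adjusted p = 0.0014), against the direction of the others. Of 19 female-biased genes, 16 were tested and 10 counted as higher, compared to 8.28% of all genes tested. Among the 10, Sult2a1, Sult3a1, A1bg, Prom1, Cux2, Cyp3a16 and Cyp3a44 did not reach 0.1 RPKM in every hypothyroid WT library. They entered the test only through the hyperthyroid libraries, so their differences are given no test. Cyp3a44 (7.76 ± 0.52), Cyp3a16 (7.72 ± 0.52) and Cyp17a1 (7.37 ± 0.46, adjusted p = 9.1e-06) had the largest differences. In L-NCOR1ΔID mice 1 male-biased gene, Susd4, was lower (-1.05 ± 0.16, adjusted p = 0.0092), and none was higher. At an unadjusted p under 0.05, 6 of the 15 were lower and 0 higher in limma, compared to 7.77% and 12.8% of all genes tested. Their median log2 difference was -0.90. Of 13 female-biased genes tested there, 1, Cyp3a16, was higher at a mean of 0.64 RPKM. It entered this test only through the L-NCOR1ΔID libraries, so its difference is given no test. At an unadjusted p under 0.05 in limma, 3 of the 13 were higher and 1 lower, compared to 12.8% and 7.77% of all genes tested, with a median of 0.33. Among these 3 were Cyp3a16 and Cyp3a44. Cyp3a44, too, entered only through the L-NCOR1ΔID libraries, so nothing is read from the count of higher genes.

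Among 18 receptors and regulators, 4 rose and 2 fell after T3, compared to 8.28% and 3.47% of all genes tested. Stat5b, a transducer of growth hormone signals, rose from 7.89 to 26.9 RPKM (1.76 ± 0.11, adjusted p = 1.0e-05) and the related Stat5a from 1.504 to 15.8 RPKM (3.34 ± 0.17, adjusted p = 4.1e-06). Ppard rose from 2.13 to 12.9 RPKM (2.51 ± 0.20, adjusted p = 2.8e-05), whereas Pparg fell from 4.95 to 1.86 RPKM (-1.35 ± 0.16, adjusted p = 2.1e-04). Nr1i3, which encodes the receptor CAR, fell from 172.7 to 44.4 RPKM (-1.97 ± 0.15, adjusted p = 2.3e-05). It was also lower in L-NCOR1ΔID mice at 81.7 RPKM (-1.07 ± 0.11, adjusted p = 0.0014), the only 1 of the 18 that passed there. At an unadjusted p under 0.05 in limma, 3 of the 18 were higher and 4 lower there, compared to 12.8% and 7.77% of all genes tested. Ppara, the receptor named for the Cyp4a genes, was at means of 48.3, 41.6 and 44.0 RPKM in hypothyroid WT, hyperthyroid WT and L-NCOR1ΔID mice and did not pass (adjusted p = 0.11 and 0.59). Ghr was at 214.3, 109.2 and 153.3 RPKM in the same order, and its log2 difference after T3 of -0.98 ± 0.09 (adjusted p = 6.7e-05) stayed short of 1. Thrb, the main TR of the liver, was at 7.57, 8.72 and 7.87 RPKM. Its log2 difference after T3 (0.21 ± 0.11, adjusted p = 0.14) was -0.03 with rescaled libraries, and that of Ncor1 (0.13 ± 0.10, adjusted p = 0.28) was -0.10.

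**Figure D5:**
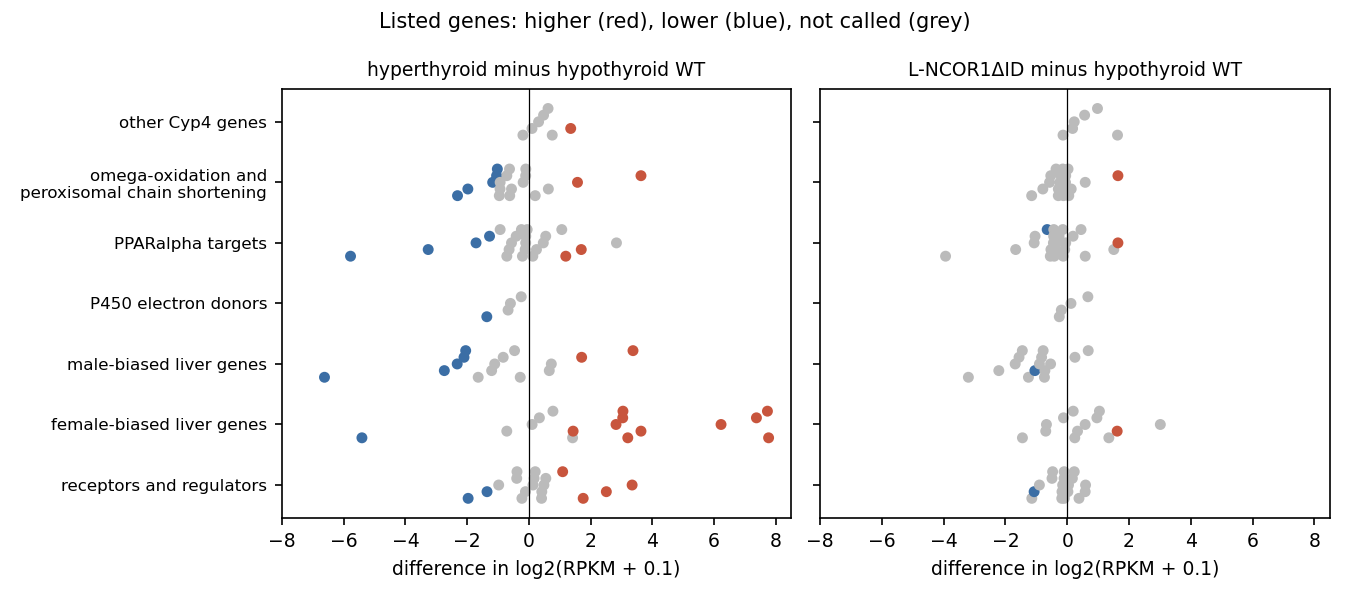
Differences in log2(RPKM + 0.1) of the tested genes of 7 lists, between hyperthyroid and hypothyroid WT (left) and between hypothyroid L-NCOR1ΔID and hypothyroid WT (right), with 1 point per gene. Red points were higher and blue points lower past the thresholds, with 10 red points among 16 female-biased genes on the left and few coloured points on the right. Some of these 10 genes entered the test only through the hyperthyroid libraries.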

How the data were processed

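Livers of 12 mice in 3 groups of 4 were measured by poly(A) RNA-seq on 2 instruments, and the labels say that every RNA sample has runs from both. The labels do not say how replicates were separated beyond their number, so the spread measured is that between these samples. Per the labels, STAR, HOMER and mm9 were used, and the values that the authors deposited are RPKM per RefSeq transcript, which hold no counts. Depth was estimated from the steps between low RPKM values of 7461 genes. At the depths found, 0.1 RPKM is 2.1 to 4.2 reads per kb. How reads that match several Cyp4a genes were treated is not given in the sources used here. The positions of acetylated regions, called by the authors on both marks and conditions, are a deposited list without signal. Of 56 samples in the series, the ChIP-seq samples were used only through that list. Among the columns of the RPKM table, 0 were left unused, and 1 transcript of 31370 without a gene name was left out.

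Genes that reached 0.1 RPKM in 4 or more of the 8 libraries in a contrast entered the test, which was limma (version 3.58.1 in R 4.3.3, with its trend option) on log2(RPKM + 0.1). The p-values were adjusted by Benjamini and Hochberg's method over every gene tested. The authors used DESeq2 on read counts, which were not used here. A fold change on this scale understates that of low genes. The thresholds were an adjusted p under 0.01, with a log2 difference above 1 in size for T3. In simulated data of 13604 genes for T3, only a small part of the genes was changed, all near or above 1 RPKM. Of those changed by 2 on the log2 scale, 92% were recovered. For L-NCOR1ΔID the share was 96% among 13599. The spread of some members differed between the groups of mice, and recovery at unequal spread was not tested. A gene that was not counted is therefore not shown to be unchanged. Alternatives were pseudocounts of 1 and 0.01, 2 other filters, 1 fit for all 12 libraries, a replicate block, no trend, rescaled libraries, the transcript with the highest mean, an adjusted p under 0.05, and each library left out.

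The members and gene lists were chosen with earlier results of these data known. Members are all named. From each list without cell markers, genes past the thresholds in the T3 or L-NCOR1ΔID fit with at least 1 RPKM in the higher group were named, at most 3 per direction and fit, together with Ppara, Thrb, Ncor1, Nr1i3, Ghr, Stat5b and Por. Genes with like patterns were the 3 with the highest Pearson's r for each of 4 members. Dio1, Lyve1, Krt7, Sox9, Sult2a1, Sult3a1, A1bg, Prom1, Cux2, Cyp4f13, Cyp4f16, Cyp4f17, Cyp4f18, Cyp4f39, Cyp4b1 and Cyb5b were named after their values were seen. The same holds for Cyp3a16 and Cyp3a44 in L-NCOR1ΔID mice. Cell markers were named as lists. Some genes that the rule would name are not reported here.

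Gene positions and coding sequences came from GENCODE M1, on the NCBIM37 (mm9) build. Coding sequences were aligned globally with Biopython 1.88, using the longest per gene. Promoters came from RefSeq (GRCm38.p6), where 4 of the 9 members matched by symbol, and were placed on mm9 by an exact match on the gene's own chromosome. Bases that a GENCODE M1 transcript of the gene already holds were not shown. Motifs were searched on both strands in the 250 bases before the start site. Python 3.11.15, numpy 2.4.6, pandas 2.3.3 and matplotlib 3.10.9 were used.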

Additional observations from a re-analysis of the deposited data

Results flagged for a closer look

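Among 27 groups of 4 libraries (9 members in 3 groups), 1 held a library apart from the others by Dixon's criterion at the 95% level, which chance meets in about 1 of 20 groups. It was Cyp4a12a in hypothyroid WT replicate 2, at 216.9 RPKM against 202.9 to 205.1 RPKM in the other 3 libraries. This gap is small beside the distance to hyperthyroid WT (5.27 to 19.2 RPKM) and to L-NCOR1ΔID mice (30.3 to 119.6 RPKM).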

How the results depend on the processing

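Members counted as higher after T3 numbered 1 in every alternative, and those counted as lower 4 to 6 with 1 library left out (4 without hypothyroid replicate 1 or 4 or hyperthyroid replicate 3). A pseudocount of 1 gave 575 genes higher and 319 lower after T3 in place of 1155 and 484, and rescaled libraries gave 749 higher. For L-NCOR1ΔID, 1 member was higher at an adjusted p under 0.05, and 0 were lower with the replicate block or without a trend. With 1 library left out, 0 to 2 members were lower and 0 higher, 1 to 2 listed genes were higher and 1 to 3 lower, and 36 to 110 genes were higher and 28 to 77 lower in all, in place of 100 and 75. The counts over all genes fell by more than 1.5 times for at least 1 direction without any 1 library other than L-NCOR1ΔID replicate 4. Cyp4v3 was no longer counted as lower without any 1 of the hypothyroid WT libraries or without L-NCOR1ΔID replicate 1 or 3, and the cause was not tested. Listed genes higher in L-NCOR1ΔID mice were 2, and 1 with a mean of at least 1 RPKM, with all 12 libraries in 1 fit or with the replicate block. Listed genes lower were 3, and 1 with the replicate block or without a trend and 8 when an adjusted p of 0.05 was used. Over all genes, the replicate block gave 20 higher and 25 lower, no trend 63 higher, all 12 libraries in 1 fit 118 lower, and an adjusted p under 0.05 gave 344 higher and 257 lower. Left-out fits gave 15 to 19 listed genes higher and 17 to 19 lower after T3, with 994 to 1139 genes higher and 383 to 485 lower. Between hyperthyroid WT and L-NCOR1ΔID mice they gave 3 to 4 members lower and 1 higher, 15 to 20 listed genes higher and 10 to 14 lower, and 568 to 761 genes higher and 302 to 422 lower. A pseudocount of 1 gave 480 higher in place of 774.

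Differences near 0 changed sign. With rescaled libraries the log2 difference after T3 was -0.1 for Cyp4a32 and for Ncor1 and -0.031 for Thrb, and that of Thrb in L-NCOR1ΔID mice was -0.00017. With 1 library left out, the difference after T3 ranged from -0.71 to 0.19 for Cyp4a14 (0.19 without hyperthyroid replicate 4) and from -0.094 to 0.41 for Cyp4a32 (-0.094 without hyperthyroid replicate 3). In L-NCOR1ΔID mice it ranged from -0.2 to 0.08 for Cyp4a12b (above 0 without hypothyroid replicate 1 or L-NCOR1ΔID replicate 2), from -0.36 to 0.86 for Cyp4a14 (-0.36 without L-NCOR1ΔID replicate 1) and from -0.089 to 0.15 for Thrb (below 0 without hypothyroid replicate 1 or L-NCOR1ΔID replicate 4). Between hyperthyroid WT and L-NCOR1ΔID mice, Cyp4a14 ranged from -1.18 to 0.035 (0.035 without L-NCOR1ΔID replicate 1). Of 486 alternative values of members, 28 lost and 2 gained a call, 7 changed sign and 449 kept direction and call. The median number of regions per member was 8 within 100 kb, 5 within 50 kb and 11 within 200 kb.

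Replicate numbers were treated as names only in the main fits. The labels do not say whether libraries of the same number share a batch, and 4 libraries per group cannot exclude it. Libraries of the same number in 2 groups deviated from their group means with correlations of -0.12 to 0.17, and no group pair had every library correlate best with its own number. The replicate block moved the call of Cyp4v3 in L-NCOR1ΔID mice and of Cyp4a10 in both contrasts with hyperthyroid WT, and changed no other call of a member. Hyperthyroid libraries were the shallowest, and RPKM under 0.1 rest on few reads, so levels of Cyp4a12b after T3 are imprecise.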
